A study of Rattus norvegicus with 24 samples.

Results

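The insulin-like growth factor and growth hormone axis of the liver was followed in male Wistar rats through 9 genes: Igf1, Igfbp1, Igfbp2, Igfbp3, Igfbp4, Igfals, Ghr, Stat5b and Socs2. Their members on the array are 13 of its 30367 non-control probes, taken by the gene name printed in the array's design, and every probe of a gene is described. Igf1 and Igfbp2 have 2 probes each, Ghr has 3 and the other genes have 1. The set was chosen by the lower Igfbp2 signal on the Geneva diet than on cholesterol alone, so for these 9 genes the values of that comparison are given as a description with no test.

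All rats ate a semi-synthetic diet with 1% cholesterol for 42 days. The Ch rats received that diet alone. The ChGENE rats received it with 5% freeze-dried kiwifruit of the cultivar Geneva (Actinidia arguta), and the ChHAYW rats with 5% freeze-dried Hayward (Actinidia deliciosa). Each diet had 8 rats, and liver RNA of each rat was hybridised to its own 1-colour Agilent array. No group without cholesterol was on the arrays, so every difference is between cholesterol-fed livers. The 8 arrays of a diet shared 1 slide, and each diet lay on another slide, so that diet and slide cannot be told apart.

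Growth hormone from the pituitary binds its receptor, the product of Ghr, on hepatocytes and activates the transcription factor Stat5b, which switches on Igf1, Igfals and Socs2. Socs2 then damps the receptor's signal. IGF-I, the product of Igf1, leaves the liver bound to binding proteins, most of it in a complex with IGFBP-3 and the acid-labile subunit encoded by Igfals, while IGFBP-1 and IGFBP-2 carry smaller amounts and are raised when insulin is low. In whole liver, fewer cells of a type and less RNA per cell cannot be told apart.

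A probe is a strand of 60 bases. The 13 probes lie on the rn4 build of the rat genome within the transcripts their genes are annotated with, and thus in exonic sequence. Only some are shown here. The Igfbp2 probe at chr9:71993843-71993902 (plus strand) is printed since Igfbp2 carried the largest difference, and 2 Ghr probes on chromosome 2 (minus strand) since they read different stretches of the same gene and did not give the same result. The Ghr probe from base 556 of the transcript lies at chr2:52524230-52524289 and the one from base 2047 at chr2:52497358-52497417. Capitals mark a stop codon, the triplet at which the protein-coding stretch ends, and all 3 are read 5′ to 3′ in the sense of the transcript.
Igfbp2, from base 926: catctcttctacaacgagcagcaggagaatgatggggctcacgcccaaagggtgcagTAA
Ghr, from base 556: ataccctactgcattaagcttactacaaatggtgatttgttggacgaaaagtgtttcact
Ghr, from base 2047: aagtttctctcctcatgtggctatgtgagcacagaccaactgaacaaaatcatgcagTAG
The first and the last of these thus end exactly with the coding stretch. The other Igfbp2 probe starts at base 1214 (chr9:71994131-71994190), beyond the stop codon. The third Ghr probe starts at base 2660 (chr2:52496746-52496805), also beyond it. The Ghr probe from base 556 carries no stop codon at its end.

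Levels are log2 signals minus the 75th percentile of the array, so 0 is that percentile, and a difference of 1 is a doubling. They compare rats at 1 probe and say nothing of one probe against another. The Ch arrays were the dimmer ones, with a 75th percentile signal of 188 to 653 (median 421), beside medians of 675 in ChGENE and 731 in ChHAYW. Of the 24 arrays, 0 pairs were identical, yet in each diet 1 pair of neighbouring positions stood close together. ChGENE 4 and 5, ChHAYW 6 and 7, and Ch 1 and 2 differed by a spread of 0.152, 0.151 and 0.171 (log2, over 14045 probes above background on all arrays). The next closest pair of each diet differed by 0.249 to 0.309. The spread between spots of a probe on 1 array was 0.0638 to 0.0982. That within-array spread leaves out what a repeat hybridisation would add. Whether the arrays of a close pair came from 1 animal, which would leave 7 rats a diet, was not tested. They were kept as separate rats as the labels have them, and several results are also given with the close arrays averaged. All 6 hepatocyte markers were above background on all 24 arrays. The 7 stellate cell and 6 sinusoidal endothelial markers were too, so this does not single out hepatocytes.

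Igfbp2, which binds both insulin-like growth factors, was the gene of the set with the lowest signal on the Geneva diet relative to Ch. At the probe from base 1214 the levels ran from 4.15 over a median of 5.21 to 6.10 in Ch, from 2.17 over 3.06 to 4.45 in ChGENE, and from 3.61 over 4.68 to 4.88 in ChHAYW. At the probe from base 926 they ran from 3.4 over 4.32 to 5.14, from 1.43 over 2.26 to 3.68, and from 2.77 over 3.90 to 4.08. The ChGENE and Ch rats overlapped at both probes through 1 animal: ChGENE 2, the highest of its diet, lay above Ch 1 and Ch 2, and the other 7 ChGENE rats lay below all Ch rats. ChGENE minus Ch was −1.84 (SE 0.334, n = 8 rats per group) at base 926 and −1.90 (SE 0.334) at base 1214. Both probes stayed above background in all 24 livers, and over the rats, with each diet's mean subtracted, they moved together with r = 0.98.

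**Figure D1:**
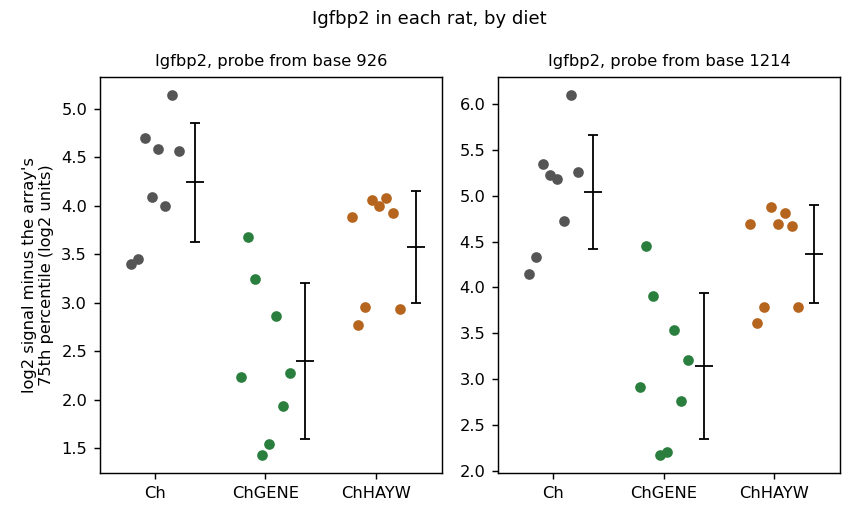
Igfbp2 level at its 2 probes (y axis, log2 signal minus the array's 75th percentile) for each rat (points) of the 3 diets (x axis), with the mean and SD of each diet beside the points. The ChGENE rats reach up to 3.68 and 4.45, and only ChGENE 2 lies above any Ch rat.

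The ChHAYW rats did not form an even band at Igfbp2. Rats 2, 3 and 8 of that diet had 3.61, 3.79 and 3.78 at the probe from base 1214, and the other 5 lay between 4.67 and 4.88. All of them fell within the combined range of the ChGENE and Ch rats. ChHAYW minus Ch was −0.68 (95% interval −1.26 to −0.09) and −0.66 at the other probe, with limma adjusted p = 0.146 and 0.162, so neither probe passed the threshold, an adjusted p under 0.05 with a fold change of at least 1.3. Under scaling to the spike-in spots these became −0.03 and −0.01, and with the close arrays averaged −0.85 and −0.84. ChGENE minus ChHAYW was −1.22 (95% interval −1.89 to −0.55) and −1.18, with limma adjusted p = 0.232 and 0.271, or −1.03 and −0.98 with the close arrays averaged. Igfbp2 had been picked by the values of the ChGENE and Ch rats. ChGENE minus ChHAYW uses the first of these and ChHAYW minus Ch the second, so neither is an independent reading.

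With the close arrays averaged, Igfbp2 stood at −1.82 and −1.88 in ChGENE minus Ch. Spike-in scaling adds 1 constant per array to every probe. It moved the median of that comparison over all 30367 probes from −0.16 to 0.31 and Igfbp2 to −1.37 and −1.43. When 1 rat was left out, the Igfbp2 difference lay between −2.08 and −1.70 at both probes in all 16 fits.

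The ligand gene, Igf1, had nearly equal medians in the 3 diets at its probe from base 502. There the levels ran from 6.72 over a median of 7.47 to 7.92 in Ch, from 7.11 over 7.48 to 7.92 in ChGENE, and from 7.02 over 7.44 to 8.08 in ChHAYW. The 3 ranges lay almost on top of each other. The medians differed by less than the SD within any diet, which was 0.320 to 0.423. ChGENE minus Ch was 0.08 (SE 0.173), and ChHAYW minus Ch was 0.09 (95% interval −0.32 to 0.50, limma adjusted p = 0.785). The second probe, which starts at base 584 of another transcript (chr7:24587916-24587975, against chr7:24604715-24604774 for the first), gave 0.22 and 0.26. The size of the ChGENE difference depended on the scaling, with 0.40 and 0.49 under quantile normalization and 0.55 and 0.69 under spike-in scaling. Its sign turned under no scaling, but did with array brightness as a covariate, to −0.17 and −0.18. The ChHAYW difference was 0.74 and 0.91 under spike-in scaling. The intervals are wide enough that Igf1 is not shown to be alike in the 3 diets.

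Igfals and Igfbp3 encode the partners of IGF-I in the large complex of the blood. At the levels used here, mean Igfals was higher and mean Igfbp3 lower than in Ch on both kiwifruit diets. Under spike-in scaling both genes had positive differences from Ch. Rats 4 and 5 of ChGENE and rats 6 and 7 of ChHAYW were the lowest of their diets at both genes. In Ch, rat 4 was the lowest at Igfals and the highest at Igfbp3. The relation of Igfals and Igfbp3 over rats was not tested. Igfals, the acid-labile subunit, had levels from 1.28 over a median of 1.66 to 2.30 in Ch, from 1.70 over 2.41 to 2.72 in ChGENE, and from 1.42 over 2.17 to 2.75 in ChHAYW. In ChGENE 6 of the 8 rats were above the highest Ch rat, and rats 4 and 5, one of the close pairs, were inside the Ch range. ChGENE minus Ch was 0.55 (SE 0.180), and 0.62 with the close arrays averaged. ChHAYW minus Ch was 0.39 (95% interval −0.05 to 0.82, limma adjusted p = 0.246). Under spike-in scaling the differences were 1.02 and 1.04.

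Igfbp3, which codes for the main carrier of IGF-I in blood, was read at chr14:87959244-87959303 on the minus strand. Its levels ran from 3.79 over a median of 3.98 to 5.07 in Ch, from 3.22 over 3.80 to 4.20 in ChGENE, and from 3.04 over 3.76 to 4.12 in ChHAYW. The ranges overlapped, and the highest Ch value, 5.07, was that of Ch 4, the array with the lowest 75th percentile. ChGENE minus Ch was −0.42 (SE 0.202) and ChHAYW minus Ch −0.50 (SE 0.202, limma adjusted p = 0.144). Under spike-in scaling both signs turned, to 0.05 and 0.15, and with array brightness as a covariate the differences were −0.03 and −0.06.

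Among the smaller carriers, Igfbp1, a gene that insulin represses, had levels from 3.62 over a median of 4.25 to 5.16 in Ch, from 2.82 over 4.74 to 4.91 in ChGENE, and from 3.22 over 3.87 to 4.98 in ChHAYW. The diets overlapped almost fully. ChGENE minus Ch was 0.15 (SE 0.294), or −0.0025 with the close arrays averaged, ChHAYW minus Ch was −0.27 (SE 0.262, limma adjusted p = 0.509), and ChGENE minus ChHAYW was 0.43 (SE 0.306, limma adjusted p = 0.766). Under spike-in scaling ChHAYW minus Ch became 0.38. Igfbp4, which holds IGF-I away from its receptor, was the steadiest gene of the set. Its levels ran from 5.61 over a median of 5.81 to 6.57 in Ch, from 5.38 over 5.92 to 6.11 in ChGENE, and from 5.46 over 5.74 to 5.99 in ChHAYW. Its differences were −0.04 (SE 0.158) and −0.18 (SE 0.147, limma adjusted p = 0.431) against Ch, and both signs turned under quantile normalization, to 0.22 and 0.01, and under spike-in scaling, to 0.43 and 0.47.

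**Figure D2:**
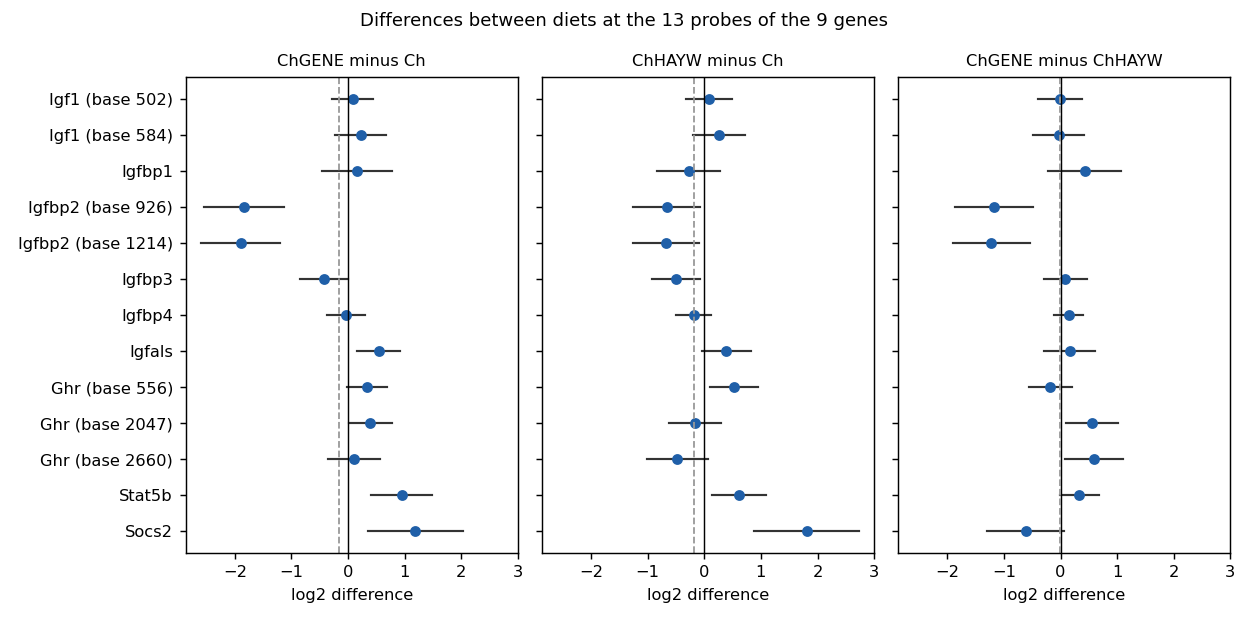
Log2 differences (x axis) at the 13 probes (rows, with the first transcript base where a gene has several probes) in ChGENE minus Ch, ChHAYW minus Ch and ChGENE minus ChHAYW, with 95% intervals. Igfbp2 lies farthest left in the first panel, at −1.84 and −1.90, the black line is 0 and the dashed line is the median of all 30367 probes, which lies at −0.16, −0.18 and −0.01. The signs of Igfbp3 and Igfbp4 against Ch, and of Igfbp1 and the 2 downstream Ghr probes in ChHAYW minus Ch, turned under spike-in scaling.

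The growth hormone receptor gene, Ghr, depended on where it was read. At the probe from base 556 the levels ran from 1.73 over a median of 2.46 to 2.87 in Ch, from 2.49 over 2.65 to 3.28 in ChGENE, and from 2.30 over 2.96 to 3.61 in ChHAYW. At the probe from base 2047 they ran from 2.27 over 2.88 to 3.27, from 2.67 over 3.18 to 3.74, and from 1.82 over 2.92 to 3.12. At the probe from base 2660 they ran from 1.05 over 1.79 to 2.62, from 1.42 over 1.93 to 2.71, and from 0.47 over 1.66 to 1.88. At both downstream probes rats 6 and 7 of ChHAYW, a close pair, were the lowest of all 24 and rat 8 was the next lowest of its diet, with 1.92, 1.82 and 2.31 at base 2047. The upstream probe gave these rats 2.79, 2.90 and 3.61, all inside the range of the other ChHAYW rats or above it. The arrays of ChHAYW 6 and 7 were also the brightest of all 24, with 75th percentile signals of 917 and 1049.

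ChHAYW minus Ch was accordingly 0.52 (95% interval 0.10 to 0.94, limma adjusted p = 0.126) at base 556, −0.16 (−0.63 to 0.30, adjusted p = 0.649) at base 2047 and −0.48 (−1.01 to 0.06, adjusted p = 0.245) at base 2660. None passed, though after normexp background correction base 556 did (0.58, adjusted p = 0.0443). So did 11480 of all 30367 probes after that correction, against 0 in the main fit. Both negative values turned under spike-in scaling, to 0.49 and 0.17, where base 556 was 1.17, and with array brightness as a covariate, to 0.36 and 0.14. ChGENE minus Ch was 0.34 (SE 0.170), 0.39 (SE 0.179) and 0.11 (SE 0.217). ChGENE minus ChHAYW was −0.18, 0.56 and 0.58, with limma adjusted p of 0.853, 0.499 and 0.539.

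Over the 24 rats, with diet means subtracted, the 2 downstream probes moved together (r = 0.91). The upstream probe followed neither of them, with r = −0.08 and −0.29. Within an array no scaling enters the difference of 2 probes, and the level at base 556 minus that at base 2047 averaged −0.39 ± 0.572 (SD, n = 8) in Ch, −0.45 ± 0.385 in ChGENE and 0.29 ± 0.719 in ChHAYW. The ranges overlapped, from −1.20 to 0.33, from −1.05 to −0.03 and from −0.70 to 1.3. This contrast of probes was chosen after their values were seen and is given with no test. The rat gene is known to give rise, by alternative splicing, to a short secreted form that binds growth hormone as well as to the full receptor. Whether this form or array brightness has a part in the difference between the probes was not tested.

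**Figure D3:**
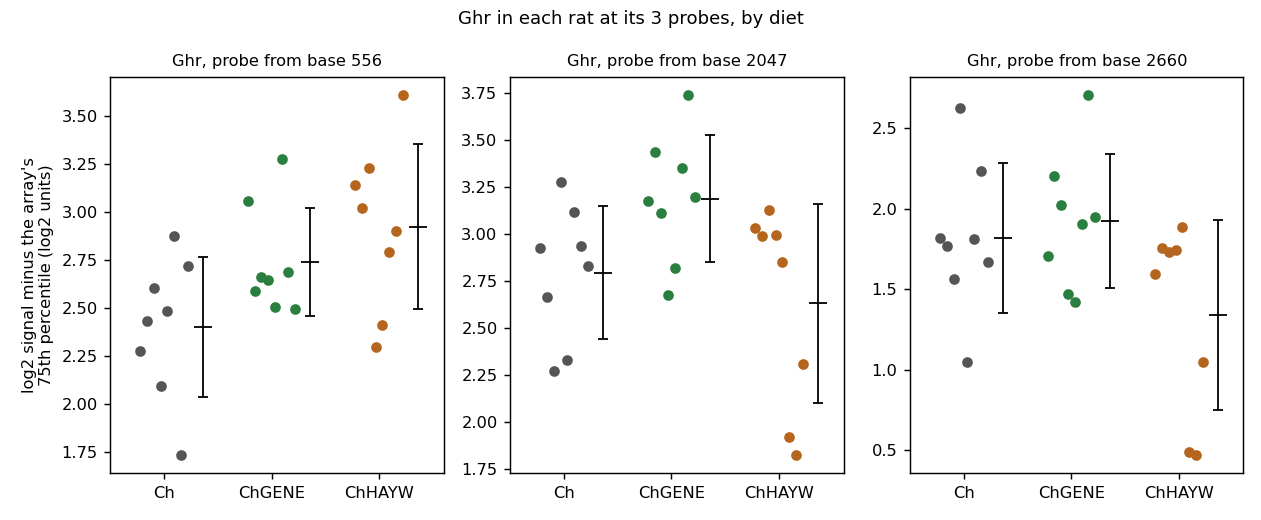
Ghr level (y axis, log2 signal minus the array's 75th percentile) in each rat (points) of the 3 diets (x axis) at the probes from bases 556, 2047 and 2660 of the transcript, with the mean and SD of each diet. In ChHAYW rats 6, 7 and 8 lie apart at the 2 downstream probes, at 1.82 to 2.31 for base 2047. At base 556 rats 6 and 7 lie within their diet and rat 8 is its highest, at 3.61. The downstream differences between ChHAYW and Ch change sign under spike-in scaling.

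Downstream of the receptor, Stat5b and Socs2 had higher means on both kiwifruit diets than on Ch at low signal. Stat5b, the transcription factor that growth hormone activates, had levels from −4.22 over a median of −2.97 to −2.39 in Ch, from −2.79 over −2.10 to −1.53 in ChGENE, and from −2.75 over −2.40 to −2.13 in ChHAYW. It was above background on 7 of the 8 Ch arrays and on all of the others. Socs2, the feedback inhibitor, had levels from −4.81 over a median of −3.14 to −1.70 in Ch, from −2.87 over −1.67 to −1.39 in ChGENE, and from −2.30 over −1.44 to −0.19 in ChHAYW. It was above background on 5 of the 8 Ch arrays and on all of the others, and the Ch rats spread widely, with an SD of 1.09. For both genes the diets overlapped, and the lowest values were all in Ch.

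For Socs2, ChHAYW minus Ch was 1.81 (95% interval 0.88 to 2.73), the largest difference of the set in that comparison, with limma adjusted p = 0.110, and ChGENE minus Ch was 1.19 (SE 0.401). The ChHAYW difference passed without Ch 3 (1.92, adjusted p = 0.0302), without ChHAYW 3 (1.84, adjusted p = 0.0387) and under median scaling (1.80, adjusted p = 0.0391). In the other 14 fits that left out 1 rat it did not pass. Of all 30367 probes, 3675 passed without Ch 3 and 4588 without ChHAYW 3, against 0 in the main fit. Median scaling also let far more probes pass than the main fit. The Socs2 difference was 0.85 after normexp background correction (adjusted p = 0.0443), which shrinks differences between dim values and let 11480 probes pass. With the close arrays averaged it was 2.13 (adjusted p = 0.222). ChGENE minus ChHAYW was −0.62 (95% interval −1.30 to 0.07, limma adjusted p = 0.656).

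For Stat5b, ChGENE minus Ch was 0.95 (SE 0.256) and ChHAYW minus Ch was 0.62 (95% interval 0.14 to 1.1, limma adjusted p = 0.116). The values were 1.42 and 1.27 under spike-in scaling, 0.35 and 0.19 with array brightness as a covariate, and 0.25 and 0.01 after normexp background correction. The rats with the highest Stat5b were ChGENE 4 and 5, a close pair, both at −1.53. These rats also had the lowest Igfbp2 (2.17 and 2.21 at base 1214), Igfbp3 (3.22 and 3.23) and Igfals (1.70 and 1.73) of their diet.

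**Figure D4:**
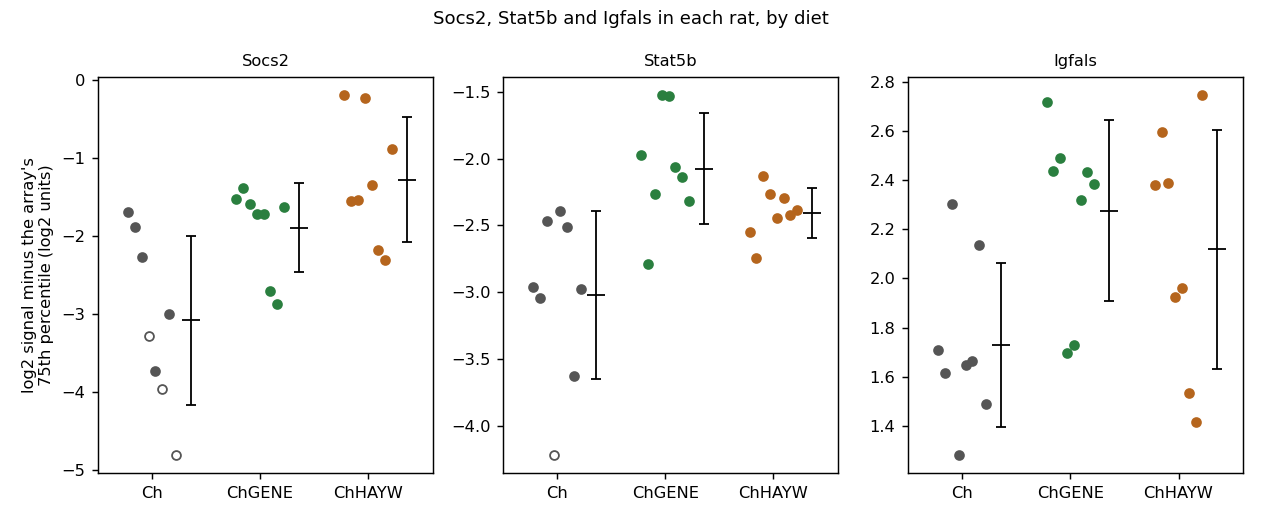
Level (y axis, log2 signal minus the array's 75th percentile) of Socs2, Stat5b and Igfals in each rat (points) of the 3 diets (x axis), with the mean and SD of each diet; open points were not above background. All open points are Ch rats, 3 at Socs2 and 1 at Stat5b, and the diets overlap in every panel.

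In ChHAYW against Ch, 0 of the 13 probes passed with limma and 0 with the unmoderated test of the study's methods, against 0% of all probes with limma. At an unadjusted p under 0.05 with the fold change there were 3 lower and 3 higher, against 19.7% lower and 3.05% higher of all probes (22.8% in all). In ChGENE against ChHAYW, 0 passed with either test, against 0.00659% of all probes with limma, and 2 lower and 2 higher at the unadjusted p, against 2.85% and 3.09% (5.93% in all). The 4 probes of that last count belonged to Igfbp2 and to Ghr from bases 2047 and 2660. In no comparison did the diets stand fully apart at any of the 13 probes. Non-overlapping diets were seen at 0.642% (lower) and 0.0494% (higher) of all probes in ChGENE against Ch, at 0.0362% and 0.0231% in ChHAYW against Ch, and at 0.0593% and 0.0329% in ChGENE against ChHAYW. The median difference over the 13 probes was 0.15 in ChGENE against Ch, −0.16 in ChHAYW against Ch and 0.08 in ChGENE against ChHAYW, beside −0.16, −0.18 and −0.01 over all probes.

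Several of the 13 probes tracked the brightness of the array within diets, and the Ch arrays were dimmer than the others. The 75th percentile that measures brightness is also subtracted from each level. This shared term can push r below 0, and the shuffles make no allowance for it. Over 24 rats the level at the Ghr probe from base 2047 had r = −0.75 with the log2 75th percentile (rho = −0.79, permutation adjusted p = 0.000325 for r and 0.000195 for rho over 13 probes), and that from base 2660 had r = −0.77. Igfbp3 had r = −0.72 (permutation adjusted p = 0.0013) and Igfbp4 r = −0.56 (adjusted p = 0.0306), while Stat5b had r = 0.67 (adjusted p = 0.00344). Without the 2 arrays farthest from the median these were −0.73, −0.74, −0.67, −0.42 and 0.66. Igfbp2 had r = −0.06 and 0.08, Socs2 r = −0.03, Igfals r = −0.12 and Igf1 r = 0.09 and 0.29, with permutation adjusted p of 0.433 or more. With brightness as a covariate Igfbp2 in ChGENE minus Ch was −1.61 and −1.70, and 0 of the 13 probes passed in any comparison.

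**Figure D5:**
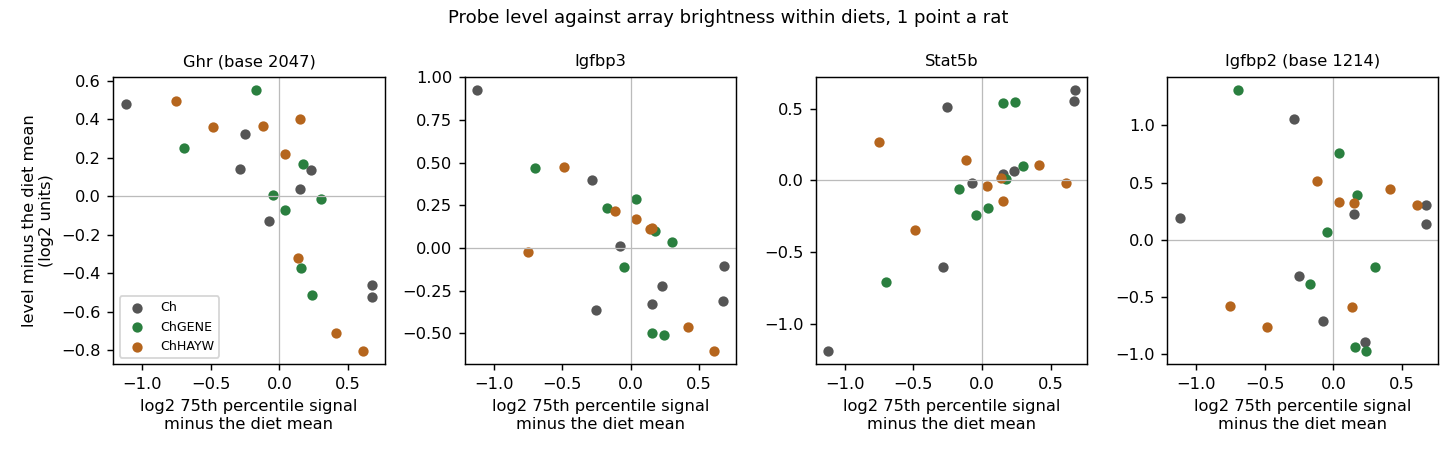
Level of Ghr (base 2047), Igfbp3, Stat5b and Igfbp2 (base 1214) against the log2 75th percentile signal of the array, both minus the mean of the diet, with 1 point per rat and colours for the diets. The points fall from left to right for Ghr and Igfbp3 (r = −0.75 and −0.72), climb for Stat5b (r = 0.67) and show no trend for Igfbp2 (r = −0.06).

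Rats of the same diet differed most at Socs2, Igfbp2 and Igfbp1. The SD within diets was 0.844 for Socs2, 0.671 and 0.661 for the Igfbp2 probes and 0.609 for Igfbp1. Of the 14045 probes above background on all arrays, 97.7%, 93.5%, 93.1% and 90.4% varied less. Socs2 is not one of those 14045 itself. At Igf1 (0.365 at base 502) 61.6% of them varied less, and at Igfbp4 (0.257) 31.9% did.

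Within diets, 8 pairs of genes were set against each other over the 24 rats, and none passed after adjustment over the pairs. The liver's Igf1 and the receptor gene Ghr had r = 0.01 (rho = 0.00, permutation adjusted p = 0.979 and 0.987). Ghr and Stat5b had r = −0.46 (rho = −0.43, permutation p = 0.0101, adjusted p = 0.0807), and −0.55 without the 2 rats farthest from the median. Both genes tracked array brightness, in opposite directions. It passed without Ch 6 (−0.54, permutation adjusted p = 0.0142) and without ChHAYW 3 (−0.53, adjusted p = 0.022). The relation became 0.46 under spike-in scaling and 0.03 after normexp background correction. Igfbp1 and Pck1, a gluconeogenic gene that insulin also represses, had r = 0.52 (rho = 0.30, permutation p = 0.0333, adjusted p = 0.133). It rested on 1 rat, ChGENE 1, as r was 0.16 without it, and within diets it was 0.30 in Ch, 0.87 in ChGENE and −0.05 in ChHAYW.

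Igf1 and Igfbp3 had r = −0.36 (rho = −0.29, permutation adjusted p = 0.269 and 0.341), with −0.81 in Ch, −0.84 in ChGENE and 0.45 in ChHAYW. Igf1 and Igfals had r = 0.30 (rho = 0.34, adjusted p = 0.302 and 0.341), with 0.33, −0.58 and 0.79 in the same order. The remaining pairs, Igf1 with Socs2, Igf1 with Igfbp1 and Igfbp1 with Igfbp2, had r of 0.19, −0.31 and 0.25 (permutation adjusted p = 0.46, 0.302 and 0.372). With the close arrays averaged the first was 0.10. Whether these relations differ between diets was not tested.

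Of 26 further genes of the axis, 25 were on the array. None of these 25 passed in any comparison with limma, beside 0.319% of all probes in ChGENE against Ch. At an unadjusted p under 0.05 with the fold change there were 3 in ChGENE against Ch, 2 in ChHAYW against Ch and 2 in ChGENE against ChHAYW, where 24.6%, 22.8% and 5.93% of all probes reached this. Their median differences were 0.01, −0.10 and 0.03, beside −0.16, −0.18 and −0.01 over all probes. The genes with the smallest p were Stc1, Grb10, Prlr and Igfbp5. Grb10, an adaptor that inhibits insulin and IGF receptors, had ChGENE minus Ch of 0.85 (SE 0.301) and ChHAYW minus Ch of 0.75. Prlr, the prolactin receptor, had −0.03 and −1.66 (SE 0.590, limma adjusted p = 0.112), and was above background on 4, 5 and 3 arrays of Ch, ChGENE and ChHAYW. Igfbp5 was not above background on more than 1 array of any diet, and Stc1, an inhibitor of the enzyme that cleaves IGFBP-4, only on 1 array of ChHAYW, so no difference is given for them. They are nevertheless among the genes counted at the unadjusted p in ChGENE against Ch.

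Of 14 genes that growth hormone patterns in rat liver, all were measured and 0 passed with limma in any comparison. In ChGENE against Ch 7 of them (6 lower and 1 higher) had an unadjusted p under 0.05 with the fold change, beside 21.1% lower and 3.47% higher of all probes. In ChHAYW against Ch 3 did (2 lower and 1 higher), beside 19.7% lower and 3.05% higher of all probes. In ChGENE against ChHAYW 3 did (all lower), beside 2.85% lower and 3.09% higher of all probes. The median differences were −0.45, −0.16 and −0.22, beside −0.16, −0.18 and −0.01 over all probes. Cyp2c13 and Cyp3a2, steroid hydroxylases of male rat liver, had ChGENE minus Ch of −0.72 (SE 0.210) and −0.76 (SE 0.227). ChHAYW minus Ch was −0.08 and −0.28 for them. Bcl6, a repressor that Stat5 switches off, had ChHAYW minus Ch of −2.02 (SE 0.586, limma adjusted p = 0.110) and ChGENE minus Ch of −0.65 (SE 0.731). Trim24 was not above background on any array, yet it is among the lower genes counted in both comparisons with Ch.

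Of 13 genes that answer to fasting and insulin, 11 were measured and 0 passed in any comparison with limma. With an unadjusted p under 0.05 and the fold change there were 3, 5 and 2 in ChGENE against Ch, ChHAYW against Ch and ChGENE against ChHAYW, beside 24.6%, 22.8% and 5.93% of all probes. Their median differences were −0.34, −0.28 and 0.14, beside −0.16, −0.18 and −0.01 over all probes. Srebf1, which encodes the transcription factor of insulin-driven lipid synthesis, had −0.82 (SE 0.267) in ChGENE minus Ch and −0.86 (SE 0.222, limma adjusted p = 0.110) in ChHAYW minus Ch. Pck1 had −0.29 and −0.57 (SE 0.177, limma adjusted p = 0.110), and Foxo3, a transcription factor held out of the nucleus by insulin, −0.46 (SE 0.145) and −0.28. Lepr was not above background on any array, yet it is among the genes counted in ChHAYW against Ch and in ChGENE against ChHAYW.

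Markers of other liver cells were read beside these genes, since Igfbp3 in liver is known to be made largely outside hepatocytes. Of 7 Kupffer cell markers all had a positive ChGENE minus Ch difference (median 0.58) and 5 a positive ChHAYW minus Ch difference (median 0.47), and 0 passed in any comparison. Their mean level per rat ranged from −0.71 to 1.68 in Ch, from −1.02 to 2.61 in ChGENE and from −0.35 to 1.58 in ChHAYW. Of 6 hepatocyte markers 2 had a positive ChGENE minus Ch difference (median −0.30) and 3 a positive ChHAYW minus Ch difference (median −0.13). The medians over all probes were −0.16 and −0.18. The mean level of 6 sinusoidal endothelial markers ranged from 0.25 to 1.28, from 0.61 to 1.89 and from 0.72 to 1.18, and that of 7 stellate cell markers from −0.47 to −0.04, from −0.55 to −0.06 and from −0.59 to −0.20. Of 5 cholangiocyte markers 2 were above background on all arrays, of 4 lymphocyte markers 0 were, and of 3 red blood cell markers the 2 that were measured had mean levels per rat from 3.34 to 4.92 in Ch, from 2.85 to 4.43 in ChGENE and from 2.71 to 4.58 in ChHAYW. No marker of any list passed in any comparison, and their part in the differences of the 9 genes was not tested.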

How the data were processed

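Liver RNA of 24 rats was labelled with 1 dye and scanned by the authors, whose Feature Extraction 10.10.1.1 output gives each spot a background-corrected intensity. The deposited intensities are on a linear scale with no scaling between arrays, and the authors' value table held the same numbers (0 of 1511424 spots differed). The labels name a miRNA labelling kit and the methods a gene expression kit. Here spots that carried an outlier flag (non-uniform or population) were dropped, log2 intensities of the spots of a probe were averaged (45 of 728808 values, with all spots marked, were kept), and each array's 75th percentile over the 30367 non-control probes was subtracted. A probe counted as above background where a share of at least 0.5 of its spots did, by the deposited call. There were 0 saturated values. For an array, signal over background stands in for depth, and the number of rats limits the precision.

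limma 3.58.1 in R 4.3.3 (lmFit, eBayes) was fitted to the 16 arrays of each comparison over all probes. To pass, a probe needed a fold change of 1.3 or more and an adjusted p (Benjamini-Hochberg) under 0.05. Relations used 100000 shuffles of rats within diets (two-sided, Python 3.11.15). The procedures were tested on simulated data. The 9 genes, the lists and the cell type markers were chosen with earlier results of these data known. Named are all 9 genes and, from each list, the 4 genes with the smallest p in any comparison. Probe names follow the array's design, and all 13 matched RefSeq symbols. Alternatives were 3 other scalings, normexp, a filter on dim probes, all spots kept, the methods' t-test, all 24 arrays in 1 fit, a replicate block and leaving out each rat. Array brightness as a covariate and the averaging of the closest arrays were added after seeing the data.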

Additional observations from a re-analysis of the deposited data

Results flagged for a closer look

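Of the 39 groups of 8 rats at the 13 probes, 1 held a rat that stood apart from the rest of its diet. ChGENE 1 had an Igfbp1 level of 2.82, while the other rats of that diet lay between 4.02 and 4.91. The gap to the nearest rat was 0.572 of the whole range of the diet. Chance flags about 1 in 20 such groups. Without that rat ChGENE minus Ch at Igfbp1 was 0.38 in place of 0.15, and ChGENE minus ChHAYW 0.66 in place of 0.43, and neither passed.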

How the results depend on the processing

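Probes passing in ChGENE against Ch (97, of them 2 of Igfbp2) numbered 64 and 2 under quantile normalization, 4623 and 3 under median scaling, 147 and 1 under spike-in scaling, 10197 and 4 after normexp, 157 and 2 with the filter on dim probes, 245 and 2 with the methods' t-test, 2863 and 3 with all 24 arrays in 1 fit, and 0 and 0 both with array brightness as a covariate and with the closest arrays averaged. The 1 under spike-in scaling was Ghr at base 2047, at 0.86. The set was chosen by Igfbp2 in this comparison, so the counts and passes of all its genes here are a description with no test. Without ChGENE 1, 3, 4, 5, 6, 7 or 8, or Ch 2, 6, 7 or 8, the Igfbp2 probes no longer passed. The other members that passed there were Stat5b under median scaling, with all 24 arrays and without ChGENE 2 or Ch 3, Igfals and Ghr at base 2047 after normexp, and Igfals and Socs2 without Ch 3. In ChHAYW against Ch (0 and 0) they numbered 3240 and 1 under median scaling, 2 and 0 under spike-in scaling, and 11480 and 2 after normexp. In ChGENE against ChHAYW 2 probes passed, and 18 under quantile normalization, 10 under median scaling, 0 under spike-in scaling, 11 after normexp, 21 with the filter, 1 with the t-test, 8 with all 24 arrays and 0 with the closest arrays averaged, with 0 of the 13 throughout. Leaving out 1 rat gave 0 to 4957, 0 to 4588 and 0 to 33 probes, and 0 to 5, 0 to 1 and 0 of the 13. Without Ch 3 the first 2 comparisons gave 4957 and 3675, and without ChHAYW 3 the second gave 4588. The replicate numbers do not pair the rats (correlations of same-numbered rats from −0.42 to 0.49, and in 1, 0 and 0 of 8 cases the highest with the same number). A replicate block left 4 probes and 0 of the 13 in ChGENE against Ch, 0 in ChHAYW against Ch and 0 in ChGENE against ChHAYW.

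Some signs turned. In ChGENE minus Ch these were Igfbp4 under quantile normalization (0.22), spike-in scaling (0.43), normexp (0.0405) and brightness (0.16), Igfbp3 under spike-in scaling (0.050), Igf1 with brightness (−0.17 and −0.18) and Igfbp1 with the closest arrays averaged (−0.0025). In ChHAYW minus Ch they were Igfbp4 under quantile normalization (0.00716), spike-in scaling (0.47) and brightness (0.0739), Igfbp1 (0.38), Igfbp3 (0.15) and Ghr at bases 2660 and 2047 (0.17 and 0.49) under spike-in scaling, and these Ghr probes with brightness (0.14 and 0.36). In ChGENE minus ChHAYW they were Igf1 under quantile normalization (0.0418 and 0.0538) and, under spike-in scaling, Igfbp3 (−0.10), Igfbp4 (−0.0384) and Igfals (−0.0228). Leaving out 1 rat turned Ghr at base 2660 (−0.0062 to 0.22), Igfbp4 (−0.0833 to 0.0535) and Igf1 at base 502 (−0.0219 to 0.15) in ChGENE minus Ch, Igf1 at base 502 in ChHAYW minus Ch (−0.0127 to 0.16), and in ChGENE minus ChHAYW Igf1 (−0.0800 to 0.0712 and −0.13 to 0.0525) and Igfbp3 (−0.0058 to 0.15). Of the 8 relations 0 passed, and 3 did under quantile normalization, 1 under median scaling, 2 under spike-in scaling and 0 to 1 without 1 rat. Igf1 with Ghr turned to −0.29 (quantile), −0.12 (median), −0.0575 (normexp) and −0.0367 (closest arrays averaged), and ranged from −0.13 to 0.15 without 1 rat. Under spike-in scaling Igf1 with Igfbp3 was 0.26, Igf1 with Igfbp1 0.33 and Ghr with Stat5b 0.46, and Ghr with Stat5b was 0.0269 after normexp. The cause of these changes was not tested. Stat5b and Socs2 are read near background in Ch, which limits their differences.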

Other observations

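The genes whose levels ran most like that of Igfbp2 over the 24 rats, after subtracting the mean of each diet, were Fbxl6, Pfkfb1, Slc25a22, Ccdc22 and Nr1i2, with Pearson's r of 0.86, 0.84, 0.83, 0.81 and 0.81. Pfkfb1 encodes the liver enzyme that makes and breaks down fructose 2,6-bisphosphate, and Nr1i2 the xenobiotic receptor PXR. For Igf1 they were Msmo1, Ddx6, Atp2b1, Nras and Ndufa7l, with r of 0.88, 0.88, 0.87, 0.84 and 0.84. Msmo1 encodes a demethylase of cholesterol synthesis. For Igfbp1 they were Rasgrp2, Tep1, Tbc1d10a, Btg2 and Plagl2, with r of 0.71, 0.68, 0.68, 0.67 and 0.67, all below the fifth gene of the others. These are the highest of 9116 genes each, picked for their r, so no p is given, and the closest arrays of each diet count as separate rats in them. The points share the array, and r with its brightness was −0.35 for Ccdc22, −0.32 for Nr1i2, 0.45 for Nras and 0.43 for Ndufa7l, and between −0.14 and 0.29 for the others.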
